A study of Homo sapiens with 44 samples.

Results

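Regulated secretion depends on a small set of protein families, and 69 genes of those families are described here across cultured human lung cancer cells and the tumours grown from them. The genes were chosen by name: every protein-coding gene of GENCODE release 29 whose symbol begins with SYT and a number, SYTL, STX and a number, STXBP, RIMS, VAMP and a number, SNAP and a number, CPLX or SV2. They are 69 of the 58721 genes in each of the 3 count tables. A symbol is not a function, so the set also holds genes that share a prefix and little else, such as SNAP91, which encodes a clathrin adaptor. It holds synaptotagmins that do not bind calcium as well, such as SYT16, whose product lacks the calcium-binding residues of some relatives.

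A secretory vesicle fuses when a VAMP protein in its membrane zips together with a syntaxin and a SNAP25-type protein in the plasma membrane, all of them SNARE proteins. RIM proteins prepare vesicles for release at the active zone, complexins clamp and then speed the assembled SNAREs, and synaptotagmins such as SYT1 and SYT7 sense calcium. STX4, SNAP23, VAMP3, VAMP8 and STXBP2 do the same work in most cells that are not neurons, while STX1A, SNAP25, VAMP2 and the RIM proteins are best known from neurons and endocrine cells.

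The cells were A549, an established line from a human lung adenocarcinoma, in 4 versions. One is the parental line (WT), with p300, the acetyltransferase encoded by EP300, intact. The others are isogenic lines in which p300 is truncated at its TAZ2 domain, a zinc-binding domain that contacts transcription factors, and they are labelled het1, het2 and homo. Since each label stands for 1 line, what distinguishes it from WT may be the truncation or any other feature of that line. Cultured cells of each line gave 3 libraries. Xenograft tumours of each line collected at day 30 gave 4 libraries. In a further set, tumours of WT and of het1 were treated for 4 weeks with vehicle (DMSO) or with SAHA (vorinostat), an inhibitor of histone deacetylases, with 4 libraries in each of the 4 groups. The labels used here do not name the host animal. There are 44 libraries in 12 groups. Whether replicates are separate cultures or animals is not stated, and the spread behind each p-value may therefore be technical.

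Before the levels, the DNA just upstream of 6 of these genes is shown, to set genes that moved differently beside one another. RefSeq (assembly GRCh38.p14) gave promoter entries for 55 of the 69 genes, 87 entries in all. In the 250 bases before the start, the GC box GGGCGG was found on either strand in 62.1% of the 87 entries, against 42.6% of 35116 entries for all genes. The median GC content was 65.2% against 58%, and the TATA box TATAAA was found in 3.45% against 10.7%. The CRE half-site TGACG was in 25.3% against 21.2%, the E-box CACGTG in 11.5% against 6.34%, and the AP-1 site TGANTCA in 4.6% against 6.57%. The 8 bases TCAGCACC, the left part of the RE1 element of neuronal genes, were in 4.6% of the entries against 1.32%, and the genes that held them were SV2B, SV2C, SYT3 and SYT4. The 6 windows below run 5′ to 3′ on each gene's strand and end before the annotated transcript. Capitals mark matches to these motifs: GC boxes in RIMS3, STX1A, STXBP5, VAMP3 and SYT14, a CRE half-site in SYT11, and in SYT14 also a CRE half-site that overlaps an E-box. RIMS3 (chr1:40665683-40665932, minus strand) and SYT11 (chr1:155859317-155859508, plus strand) are shown for genes that were raised in all 3 truncated lines in culture. SYT14 (chr1:209937967-209938173, plus strand) went from near 0 to more than 10 CPM in 2 of those lines, STXBP5 (chr6:147204167-147204416, plus strand) was raised most in het2, STX1A (chr7:73719673-73719919, minus strand) moved in different directions in different lines, and VAMP3 (chr1:7771046-7771268, plus strand) hardly moved.
RIMS3: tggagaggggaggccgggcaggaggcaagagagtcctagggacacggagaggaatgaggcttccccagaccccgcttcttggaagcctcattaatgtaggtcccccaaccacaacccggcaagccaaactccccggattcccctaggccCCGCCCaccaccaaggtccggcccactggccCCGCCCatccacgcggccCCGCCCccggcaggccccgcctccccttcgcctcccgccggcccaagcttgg
SYT11: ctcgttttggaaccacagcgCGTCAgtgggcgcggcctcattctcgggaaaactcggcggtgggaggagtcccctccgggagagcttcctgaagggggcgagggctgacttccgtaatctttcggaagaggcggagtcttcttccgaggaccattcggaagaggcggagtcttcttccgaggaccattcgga
SYT14: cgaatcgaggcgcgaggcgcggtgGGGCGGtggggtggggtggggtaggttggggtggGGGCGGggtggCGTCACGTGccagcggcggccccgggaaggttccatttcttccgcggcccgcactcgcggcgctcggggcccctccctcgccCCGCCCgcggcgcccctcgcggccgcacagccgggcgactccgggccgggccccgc
STXBP5: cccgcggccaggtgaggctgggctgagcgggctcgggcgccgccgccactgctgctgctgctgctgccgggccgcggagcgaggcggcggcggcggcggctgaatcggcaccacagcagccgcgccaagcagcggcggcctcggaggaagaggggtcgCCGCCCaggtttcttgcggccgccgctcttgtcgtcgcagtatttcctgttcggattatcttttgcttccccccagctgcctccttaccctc
STX1A: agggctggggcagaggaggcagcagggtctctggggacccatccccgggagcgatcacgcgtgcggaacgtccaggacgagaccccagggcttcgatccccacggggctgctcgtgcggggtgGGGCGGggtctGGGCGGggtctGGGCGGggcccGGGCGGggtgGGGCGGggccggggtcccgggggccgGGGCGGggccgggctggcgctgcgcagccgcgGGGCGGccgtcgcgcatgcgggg
VAMP3: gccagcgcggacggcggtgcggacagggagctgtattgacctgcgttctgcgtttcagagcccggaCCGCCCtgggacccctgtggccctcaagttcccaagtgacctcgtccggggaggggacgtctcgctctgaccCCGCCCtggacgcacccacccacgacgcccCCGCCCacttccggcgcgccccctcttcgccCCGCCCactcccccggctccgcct

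These windows held between 60.9% GC (SYT11) and 81.2% GC (SYT14). STX1A had 7 GC boxes in 247 bases, VAMP3 had 4 in 223 bases, RIMS3 had 3 in 250 bases and STXBP5 had 1. The window of VAMP3, whose level was steady, and that of STX1A, whose level was not, were thus both rich in GC boxes. A match describes the letters of a window and is not evidence that a factor binds there.

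Library totals were 61168373 to 93444327 counts in culture, 63243289 to 99593214 in day 30 tumours and 61937591 to 82475298 in treated tumours. Levels are CPM, the counts of a gene scaled to a common library size, after TMM scaling within each of the 3 tables. The tables were normalised separately, so cultured cells and tumours are set side by side below without a test. A gene was called raised or lowered when edgeR's quasi-likelihood test gave a Benjamini-Hochberg adjusted p under 0.05 over all genes of the table; log2FC is the fitted log2 fold change and SE its standard error. EP300, the edited gene, was counted as a whole gene and read 115 CPM in WT cells against 185, 153 and 190 CPM in het1, het2 and homo cells, so its total count does not check the truncation. In these bulk samples, fewer cells of a type and less RNA per cell cannot be told apart.

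**Figure D1:**
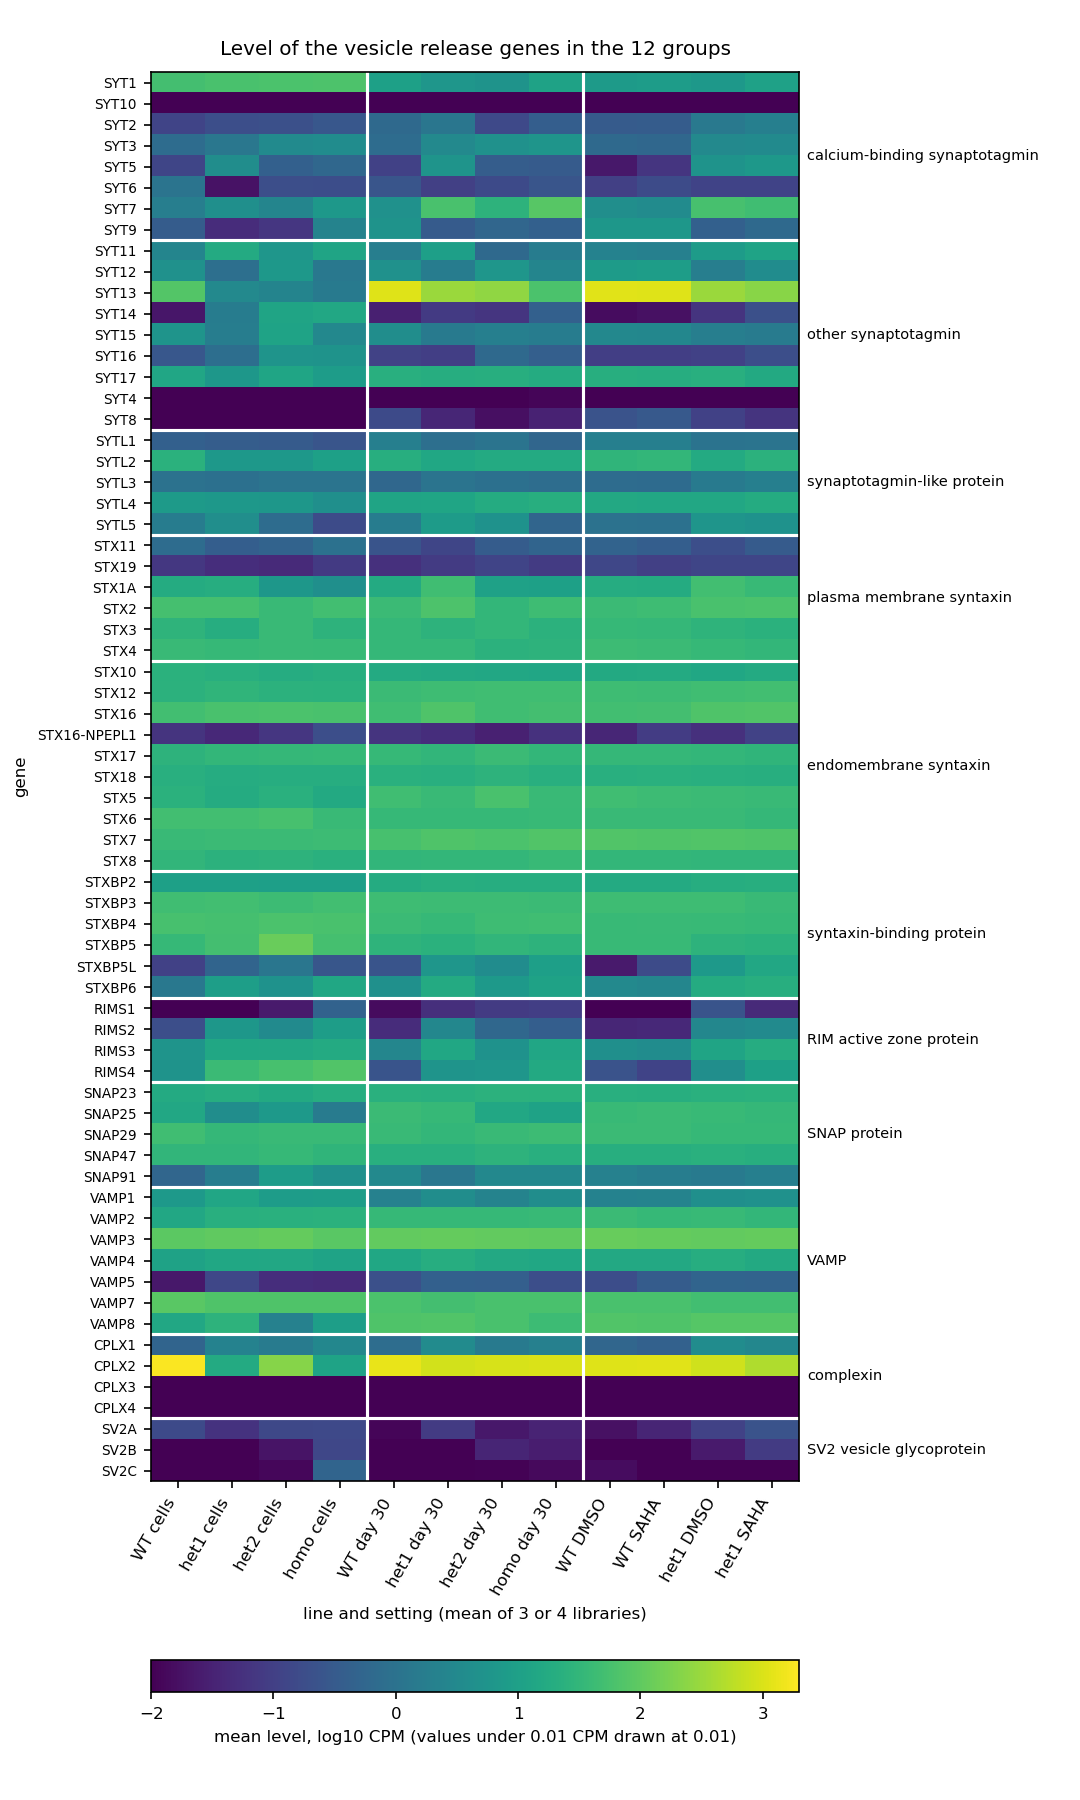
Mean level of 67 of the 69 genes (rows, grouped by role) in the 12 groups (columns), as log10 CPM, with values under 0.01 CPM drawn at 0.01. CPLX2 and SYT13 reach the highest values, the syntaxins of internal membranes are even across groups, and CPLX3 and SYT10 are at 0 throughout.

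Most of the set was expressed in these lung cancer cells. Group means reached 1 CPM for 45 genes in WT cells and for 48, 50 and 50 in het1, het2 and homo cells. The counts in day 30 tumours were 45, 51, 47 and 46 in the same order. CPLX3 and SYT10 had 0 counts in every library. Enough reads for a test were present for 60 genes in culture, 59 in day 30 tumours and 60 in treated tumours, and no gene left out passed 0.315 CPM in any library of its table. Per kilobase of exon, CPLX2 stood highest in WT cells at 264 CPM per kb, with VAMP3 next at 34.1 CPM per kb. VAMP3 was highest in the truncated lines, at 36.5, 39.7 and 31.4 CPM per kb in het1, het2 and homo cells. In WT tumours at day 30 SYT13 was highest at 204 CPM per kb, followed by CPLX2 at 184 CPM per kb. CPLX2 was highest in day 30 tumours of het1 (121 CPM per kb), het2 (133 CPM per kb) and homo (139 CPM per kb).

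Against WT, 44 of the 60 tested genes passed in het1 cells, 27 raised and 17 lowered, where 62.8% of all genes tested passed (32.0% raised, 30.8% lowered). In het2 cells 46 passed, 29 raised and 17 lowered, against 68.5% of all genes (35.1% raised, 33.3% lowered). In homo cells 48 passed, 27 raised and 21 lowered, against 70.5% of all genes (35.4% raised, 35.1% lowered). The shares of the set were 73.3%, 76.7% and 80%. With a change of at least 2-fold also required, 22, 23 and 25 genes passed, or 36.7%, 38.3% and 41.7% of the set, where 19.6%, 23.7% and 26.6% of all genes did. The median size of the log2FC was 0.53, 0.51 and 0.68 over the set and 0.39, 0.47 and 0.49 over all genes.

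In day 30 tumours 40 of 59 tested genes passed in het1, 23 raised and 17 lowered, against 51.5% of all genes (26.8% raised, 24.8% lowered). In het2 tumours 34 passed, 21 raised and 13 lowered, against 49.2% (24.4% raised, 24.8% lowered). In homo tumours 38 passed, 21 raised and 17 lowered, against 54.8% (27.1% raised, 27.7% lowered). At 2-fold or more 19, 15 and 19 genes passed, or 32.2%, 25.4% and 32.2% of the set, where 18.5%, 14.1% and 20.0% of all genes did. The 3 lines were compared with the same WT libraries, so their differences from WT are not independent of one another. The median log2FC of the set stayed near 0, at 0.08, 0.21 and 0.05 in culture and at 0.06, 0.11 and 0.02 in tumours. The called genes leaned toward rises in each line and setting, and at 2-fold or more 13, 14 and 17 were raised and 9, 9 and 8 lowered in het1, het2 and homo cells.

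**Figure D2:**
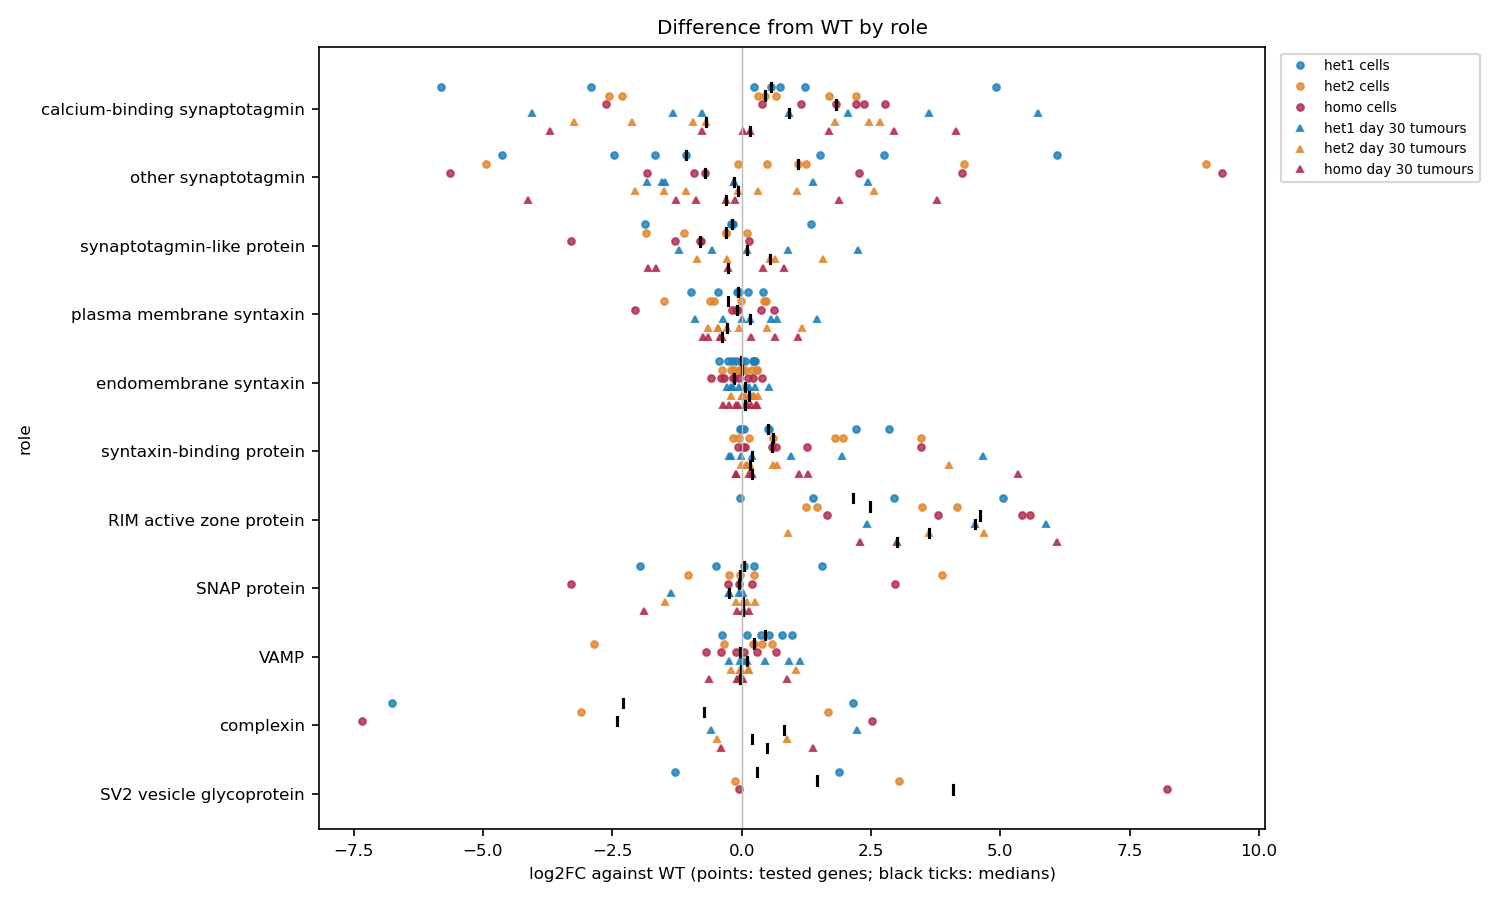
Difference from WT (log2FC, horizontal axis) of each tested gene by role (rows), for the 3 truncated lines in culture (circles) and in day 30 tumours (triangles); black ticks are medians. The RIM proteins lie almost wholly to the right of 0, the endomembrane syntaxins stay close to 0, and the synaptotagmins and complexins spread to both sides.

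The complexins gave the largest fall of the set. CPLX2, which binds the assembled SNARE complex, read 1900, 1843 and 1878 CPM in the 3 WT culture libraries. It read 16.9, 17.9 and 17.2 CPM in het1 cells, 214, 220 and 216 CPM in het2 cells and 11.2, 11.9 and 11.9 CPM in homo cells. No group overlapped any other. The log2FC against WT was -6.75 (SE 0.03, adjusted p = 1.81e-45) in het1, -3.11 (SE 0.03, adjusted p = 3.13e-39) in het2 and -7.33 (SE 0.03, adjusted p = 1.58e-46) in homo. WT tumours at day 30 read 1283, 1331, 1273 and 1336 CPM. The het1 tumours read 795, 811, 896 and 943 CPM, the het2 tumours 896, 970, 1096 and 807 CPM, and the homo tumours 974, 1100, 850 and 1034 CPM. All 12 truncated tumours lay below all 4 WT tumours, but by log2FC of only -0.60 (SE 0.09), -0.47 (SE 0.09) and -0.40 (SE 0.09), each called lowered. The homo call was lost when a score of fibroblast, endothelial and myeloid genes was added as a covariate (log2FC -0.39, adjusted p = 0.092). CPLX1, the other tested complexin, moved the opposite way from a low level: 0.517 ± 0.208 CPM in WT cells (SD, n = 3) against 2.24 ± 0.316 in het1, 1.60 ± 0.359 in het2 and 2.87 ± 0.173 in homo, all 3 raised. It was raised in the tumours of the 3 lines too, from 0.783 ± 0.274 CPM (SD, n = 4) to 3.68 ± 0.499, 1.46 ± 0.281 and 2.05 ± 0.286 CPM. CPLX3 and CPLX4 had too few reads to test.

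The RIM proteins, whose longer members tie vesicles to Rab3 and calcium channels at the release site, held no gene called lowered against WT. Of the 4 genes tested in culture, 3 were raised in het1, 3 in het2 and 4 in homo. Of the 3 tested in day 30 tumours, all were raised in each line. Of all genes 32.0%, 35.1% and 35.4% were raised in culture and 26.8%, 24.4% and 27.1% in tumours, and counts over so few genes carry little weight. RIMS4 (chr20:44751808-44810338, minus strand), a short family member, read 5.67, 5.11 and 4.99 CPM in WT cells. It read 41.0, 38.7 and 41.5 CPM in het1 cells, 57.5, 61.4 and 56.6 CPM in het2 cells and 74.7, 72.1 and 70.1 CPM in homo cells. Every truncated library was thus above every WT library, and the log2FC was 2.95 (SE 0.05), 3.48 (SE 0.05) and 3.79 (SE 0.05). In day 30 tumours WT was almost silent, at 0.313, 0.261, 0.197 and 0.192 CPM. The het1 tumours read 5.41, 6.41, 5.51 and 4.57 CPM, the het2 tumours 6.62, 6.82, 5.14 and 6.17 CPM, and the homo tumours 16.1, 14.4, 19.7 and 15.9 CPM. The log2FC there was 4.51 (SE 0.17, adjusted p = 2.54e-14), 4.68 (SE 0.17, adjusted p = 2.46e-14) and 6.10 (SE 0.17, adjusted p = 2.90e-16), and the homo tumours did not overlap those of either het line. RIMS4 shares 506 exon bases with KCNK15 on the opposite strand, and whether counting used strand is not stated.

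RIMS2 rose from 0.183 ± 0.0863 CPM in WT cells (SD, n = 3) to 6.34 ± 0.465, 3.41 ± 0.11 and 9.07 ± 0.504 CPM in het1, het2 and homo cells. At day 30 it rose in tumours from 0.0464 ± 0.024 CPM (SD, n = 4) to 2.84 ± 0.303 CPM in het1, with smaller levels of 0.591 ± 0.0203 CPM in het2 and 0.384 ± 0.0771 CPM in homo. The order of the lines differed between the settings: homo cells were the highest in culture and homo tumours the lowest of the 3 truncated lines. RIMS3 (1.37, 1.47 and 1.65 log2FC in culture) rose from 5.42 ± 0.537 CPM to 14.1 ± 0.796, 15.0 ± 0.92 and 17.1 ± 0.425 CPM, and in tumours from 2.73 ± 0.827 CPM to 14.6 ± 2.08, 5.08 ± 0.606 and 13.4 ± 0.801 CPM. RIMS1 was sparse throughout. In culture homo cells held 95 counts over 3 libraries against 2 in WT. That is a ratio of 50.9 (95% interval 13.7 to 427, counting error only). Its fitted log2FC of 5.41 was 4.79 without the WT library of replicate 3, which had 0 counts. RIMS1 in day 30 tumours had 5 counts over the 4 WT libraries and 16, 31 and 28 in het1, het2 and homo. With vehicle, the het1 tumours held 69 counts against 2 in WT, a ratio of 33.5 (95% interval 8.93 to 282, counting error only), and with SAHA they held 13 against 2.

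Among synaptotagmins that bind calcium, SYT7, the slow high-affinity sensor of lysosome and granule release, was raised in all 6 comparisons with WT. In culture it read 1.77, 2.00 and 1.90 CPM in WT, 4.17, 4.35 and 4.75 CPM in het1, 2.41, 3.04 and 2.38 CPM in het2 and 6.64, 6.37 and 7.21 CPM in homo. The WT tumours read 5.21, 4.33, 4.28 and 5.48 CPM. The het1 tumours read 50.6, 53.2, 63.9 and 71.4 CPM, the het2 tumours 32.2, 27.0, 18.2 and 28.7 CPM and the homo tumours 77.6, 108, 71.4 and 86.0 CPM. The lowest truncated tumour was above the highest WT tumour in each line. The log2FC was 1.22 (SE 0.12), 0.46 (SE 0.12) and 1.83 (SE 0.11) in culture and 3.63 (SE 0.20), 2.46 (SE 0.19) and 4.15 (SE 0.20) in tumours. SYT3, another calcium sensor, was raised as widely, from 0.756 ± 0.0607 to 1.26 ± 0.12, 3.52 ± 0.342 and 3.87 ± 0.53 CPM in culture, and from 0.746 ± 0.123 to 3.10 ± 0.339, 4.77 ± 0.552 and 5.80 ± 0.44 CPM in tumours.

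SYT5, found on dense-core vesicles, was mainly a het1 gene. It read 3.42, 4.13 and 4.10 CPM in het1 cells and 0.116 to 0.138 CPM in WT cells, with 0.413 ± 0.118 CPM in het2 and 0.594 ± 0.103 CPM in homo. Het1 tumours at day 30 read 5.80, 6.03, 5.26 and 5.29 CPM, where no library of the other lines passed 0.42 CPM. The difference between het1 and het2 itself passed the test in both settings, with a log2FC of 3.23 (SE 0.20) in culture and 3.91 (SE 0.22) in tumours. SYT9, a sensor of neuroendocrine granules, turned with the setting in 1 line. WT tumours read 5.49, 5.69, 5.20 and 5.23 CPM, and the means of 0.325, 0.562 and 0.412 CPM in het1, het2 and homo tumours were all lowered. In culture WT read 0.342 ± 0.0912 CPM, het1 and het2 were lowered to 0.0464 ± 0.0585 and 0.0691 ± 0.0432 CPM, and homo was raised to 2.38 ± 0.0867 CPM. The homo log2FC against the mean of the het lines in culture was 5.39 (SE 0.31), and 6.22 without het1 replicate 3.

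SYT1, the fast calcium sensor of synapses, was raised in culture and lowered in both het tumours. In the cultured lines it rose by log2FC of 0.24, 0.32 and 0.39 from 51.4 ± 3.07 CPM. The WT tumours at day 30 read 12.3, 8.18, 9.75 and 10.4 CPM, and SYT1 was called lower in het1 (5.96 ± 0.553 CPM) and in het2 (5.28 ± 0.516 CPM). The homo tumours ranged from 5.35 to 16.6 CPM and overlapped WT. The het1 call (log2FC -0.77, adjusted p = 0.0195) did not hold without WT replicate 0 (-0.66, adjusted p = 0.0583), without het1 replicate 1 (-0.70, adjusted p = 0.0586) or with the host score as covariate (-0.90, adjusted p = 0.059), nor did the het2 call with that covariate (-1.16, adjusted p = 0.0871). For SYT1 in homo tumours, leaving out homo replicate 1, the lowest library, gave a log2FC of 0.39 (adjusted p = 0.0477) in place of 0.16 (adjusted p = 0.624). SYT6, linked to the sperm acrosome reaction, was lowered in culture from 1.09 ± 0.15 CPM to 0.0184 ± 0.0159 CPM in het1, 0.185 ± 0.103 CPM in het2 and 0.178 ± 0.0765 CPM in homo. Its het1 log2FC was -5.80, and -5.22 without het1 replicate 1.

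Synaptotagmins that do not bind calcium gave the other extreme values. SYT13 (chr11:45240301-45286319, minus strand), which has a single transmembrane segment and tandem C2 domains without calcium-binding residues, read 76.3, 75.1 and 79.0 CPM in WT cells. It read 2.85, 3.51 and 2.91 CPM in het1, 2.52, 2.17 and 2.79 CPM in het2 and 1.62, 1.27 and 1.72 CPM in homo cells. WT tumours at day 30 read far more, 1092, 1150, 1060 and 1121 CPM, although the table was normalised apart from that of the cultured cells. The het1 tumours read 289, 290, 345 and 323 CPM, the het2 tumours 275, 253, 292 and 239 CPM, and the homo tumours 55.2, 76.9, 51.1 and 68.5 CPM. All truncated libraries were below all WT libraries in both settings, and the homo tumours were below all het tumours. The log2FC was -4.64 (SE 0.07), -4.94 (SE 0.07) and -5.64 (SE 0.08) in culture and -1.83 (SE 0.10), -2.06 (SE 0.11) and -4.14 (SE 0.12) in tumours. The homo tumours differed from the mean of the het tumours by a log2FC of -2.19 (SE 0.10, adjusted p = 8.34e-12).

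SYT14 and SYT16, closely related genes, were raised in culture and most in het2 and homo. SYT14 read 0, 0.0276 and 0.0348 CPM in WT cells and 1.71, 2.16 and 1.08 CPM in het1 cells. It read 11.4, 12.2 and 12.9 CPM in het2 and 14.3, 15.5 and 15.5 CPM in homo cells. The log2FC was 6.09 (SE 0.39), 8.97 (SE 0.26) and 9.28 (SE 0.25). No tumour line held that level at day 30: the highest SYT14 library was 0.724 CPM, in homo, the only line called raised there. SYT16 rose in culture from 0.274 ± 0.0636 CPM to 0.809 ± 0.172, 5.54 ± 0.509 and 5.38 ± 0.405 CPM, and it shares 681 exon bases with genes on the opposite strand. SYT11, a trafficking protein that does not bind calcium, was raised in the 3 cultured lines (2.55 ± 0.52 CPM in WT against 17.5 ± 0.889, 6.13 ± 0.553 and 12.4 ± 0.277 CPM) but split in tumours. There het1 was raised to 9.86 ± 1.28 CPM, het2 was lowered to 0.638 ± 0.246 CPM and homo at 1.67 ± 0.61 CPM overlapped WT at 1.82 ± 0.424 CPM.

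SYT12 and SYT15 separated the het lines in culture. SYT12 read 4.75 ± 0.203 CPM in WT cells, was lowered to 0.866 ± 0.222 CPM in het1 and raised to 6.63 ± 0.878 CPM in het2, and was lowered to 1.33 ± 0.243 CPM in homo. SYT15 read 5.56 ± 0.325 CPM in WT, was lowered to 1.73 ± 0.288 CPM in het1, raised to 11.8 ± 0.853 CPM in het2 and lowered to 2.95 ± 0.35 CPM in homo. Of the 5 synaptotagmin-like proteins, which tether granules through Rab27, SYTL2 was lowered in culture from 24.7 ± 1.21 CPM to 6.74 ± 0.378, 6.85 ± 0.502 and 10.1 ± 0.504 CPM. SYTL5 followed the lines apart: against 1.65 ± 0.246 CPM in WT cells it was raised to 4.12 ± 0.212 CPM in het1 and lowered to 0.751 ± 0.109 CPM in het2 and 0.162 ± 0.0632 CPM in homo. In tumours SYTL5 was raised in het1 (7.99 ± 1.59 CPM) and het2 (4.97 ± 0.78 CPM) and lowered in homo (0.53 ± 0.142 CPM), from 1.68 ± 0.307 CPM in WT.

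**Figure D3:**
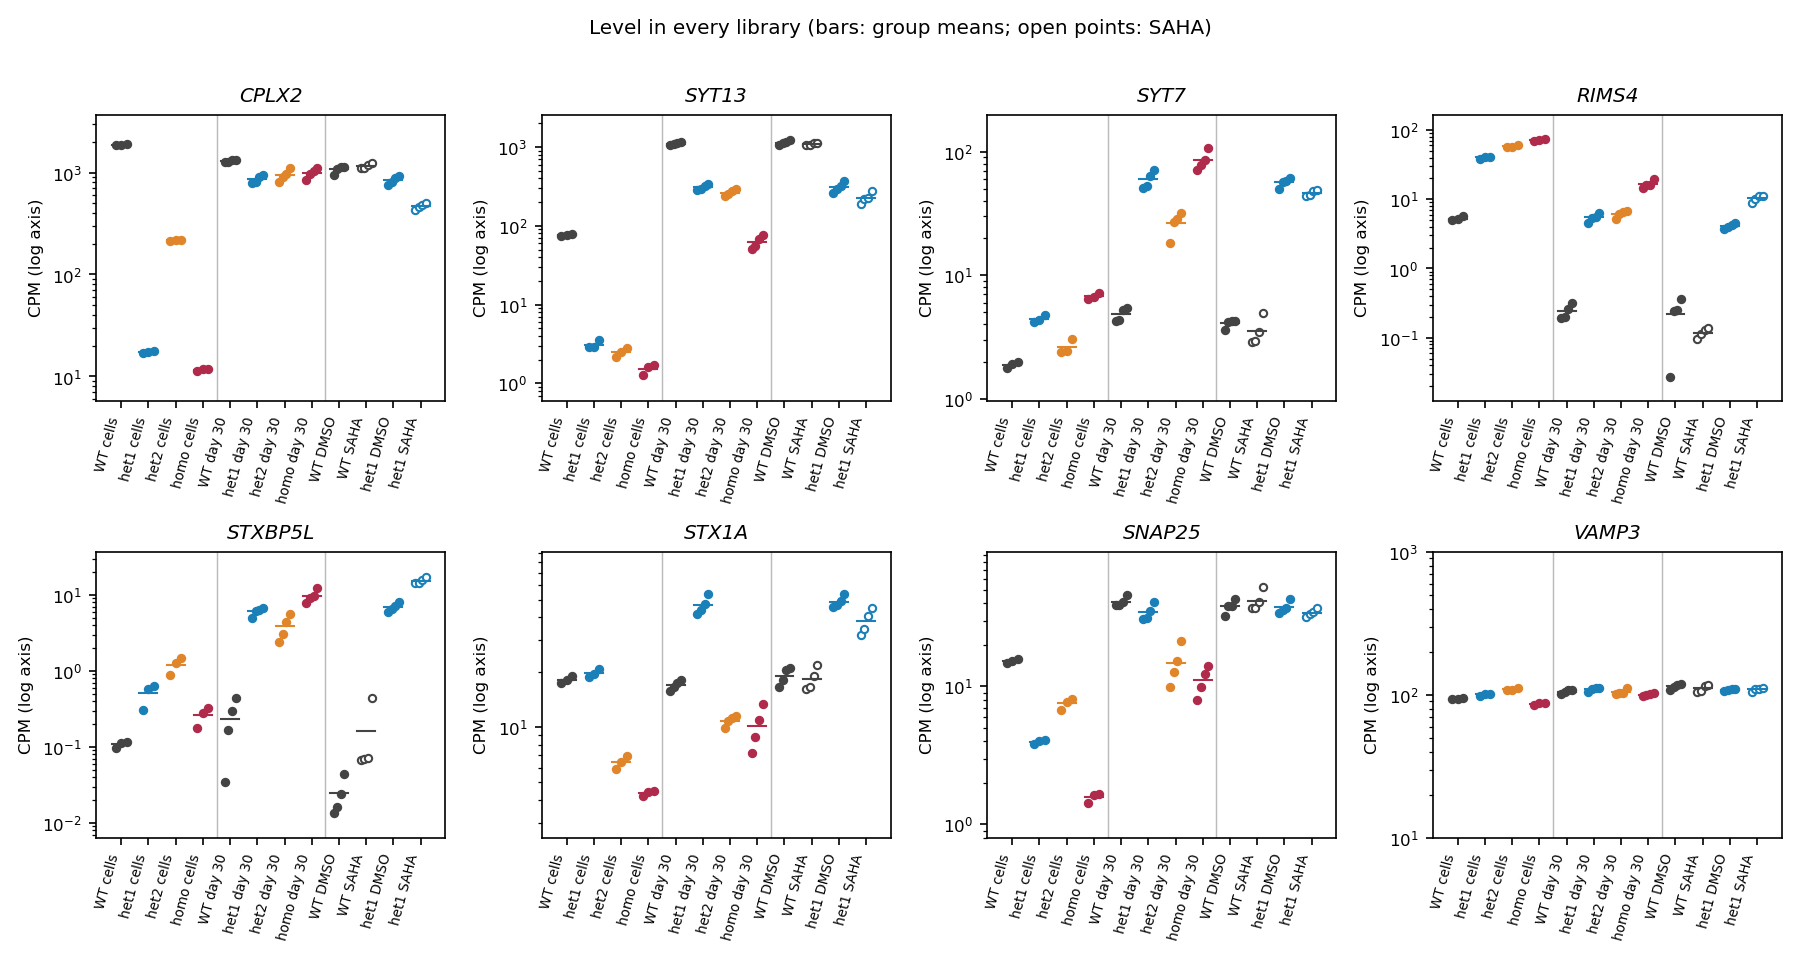
Level of 8 genes in every library (points; CPM on a log axis) by group, with bars at the group means and open points for SAHA. CPLX2 and SYT13 drop in the truncated lines, RIMS4, SYT7 and STXBP5L climb, STX1A and SNAP25 differ by line, and VAMP3 stays between 85.1 and 119 CPM throughout.

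STX1A, the plasma membrane syntaxin of neurons and endocrine cells, read 19.1, 18.0 and 17.6 CPM in WT cells and 19.4, 18.9 and 20.9 CPM in het1 cells, which overlapped. It read 6.97, 5.93 and 6.41 CPM in het2 and 4.21, 4.47 and 4.40 CPM in homo, both lowered (log2FC -1.50, SE 0.07, and -2.06, SE 0.07). Het1 tumours at day 30 read 53.5, 47.5, 43.5 and 41.6 CPM, above the 15.8, 18.2, 16.6 and 17.4 CPM of WT (log2FC 1.45, SE 0.13). The het2 tumours at 11.5, 10.8, 11.2 and 9.92 CPM and the homo tumours at 7.23, 13.4, 8.85 and 11.0 CPM were below every WT tumour and were called lowered. STX1A shares 662 exon bases with BUD23 on the opposite strand, so its counts are uncertain where strand was not used.

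SNAP25 (chr20:10218830-10307418, plus strand), the partner of STX1A, read 14.9, 15.8 and 15.4 CPM in WT cells, 3.81, 4.06 and 4.03 CPM in het1, 7.67, 8.16 and 6.74 CPM in het2 and 1.43, 1.65 and 1.62 CPM in homo. The 4 lines did not overlap, and the log2FC was -1.96 (SE 0.08), -1.03 (SE 0.08) and -3.30 (SE 0.10). In day 30 tumours WT read 46.4, 39.2, 38.9 and 40.7 CPM and het1 31.4, 31.1, 41.1 and 35.4 CPM, which overlapped and did not pass (log2FC -0.25, SE 0.20). The het2 tumours at 9.84, 15.3, 21.3 and 12.7 CPM and the homo tumours at 12.4, 8.01, 14.2 and 9.92 CPM were lowered by log2FC of -1.48 (SE 0.21) and -1.89 (SE 0.21). A fit of the WT and het1 tumours alone gave SNAP25 the same log2FC and put it past the threshold (adjusted p = 0.0317). VAMP2, the vesicle SNARE of synapses, was raised in the 3 cultured lines by log2FC of 0.53, 0.58 and 0.67 from 15.2 ± 0.455 CPM. Its 4 group means in day 30 tumours lay between 35.1 and 36.5 CPM and no line passed.

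Among the SNAREs of general use, VAMP3, of recycling endosomes, was called in each cultured line with log2FC of 0.10, 0.22 and -0.12 (94.1 ± 1.47 CPM in WT against 101 ± 1.75, 110 ± 1.92 and 86.8 ± 1.53 CPM) and did not pass in tumours. STX4, the plasma membrane syntaxin of most cells, did not pass in culture, where its means ran from 36.2 to 38.4 CPM. In tumours it was lowered in het2 (25.0 ± 1.72 CPM) and homo (26.2 ± 1.67 CPM) from 34.3 ± 2.23 CPM. For STX4 in het1 cells, leaving out WT replicate 2 gave a log2FC of -0.11 (adjusted p = 0.0374). SNAP23 means ran from 16.7 to 20.3 CPM in culture and from 22.4 to 25.1 CPM in tumours. In culture every SNAP23 library of het1 (19.9 to 20.9 CPM) and homo (18.9 to 20.1 CPM) was above those of WT (17.1 to 17.2 CPM). SNAP23 shares 1836 exon bases with genes on the opposite strand. VAMP8 (chr2:85561562-85582031, plus strand), a SNARE of granule and endosome fusion, differed between the lines in culture: WT cells read 15.6, 15.7 and 14.7 CPM, het1 26.8, 25.2 and 26.8 CPM, het2 2.27, 1.92 and 2.19 CPM and homo 9.73, 9.81 and 8.91 CPM. It was raised in het1 and lowered in het2 and homo, and the het lines differed by a log2FC of 3.62 (SE 0.07). In tumours VAMP8 was called in homo alone (44.0 ± 7.23 CPM against 67.9 ± 4.49 CPM), a call lost with the host score as covariate (log2FC -0.29, adjusted p = 0.178). Without het2 replicate 4 the het2 tumours passed for VAMP8 as well (log2FC -0.29, adjusted p = 0.0134), and with that covariate the het1 tumours did (0.28, adjusted p = 0.0422). The 9 tested syntaxins of internal membranes held 0 changes of 2-fold or more in culture and in tumours, where 14.1% to 26.6% of all genes changed that much. Smaller changes passed among them in both directions in every line and setting.

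Of the 7 syntaxin-binding proteins tested, 4, 5 and 4 were raised and 0, 1 and 0 lowered in het1, het2 and homo cells, and 4, 3 and 4 were raised and 2, 0 and 0 lowered in the day 30 tumours. Of all genes 62.8%, 68.5% and 70.5% passed in culture and 51.5%, 49.2% and 54.8% in tumours, so these counts of 4 to 6 of 7 and 3 to 6 of 7 say little about the group. STXBP2 had means of 9.78 to 10.3 CPM in culture and did not pass there. In het1 tumours STXBP2 passed at a log2FC of 0.20 (adjusted p = 0.0256), a call lost without WT replicate 0 (adjusted p = 0.0538), WT replicate 2 (0.0684), het1 replicate 1 (0.0616) or het1 replicate 4 (0.0718), and the homo tumours passed only without homo replicate 0 (log2FC 0.20, adjusted p = 0.0191). STXBP5 (tomosyn), which competes with VAMP for the target SNAREs, was raised to 125 ± 3.71 CPM in het2 cells from 36.0 ± 1.35 CPM, and to 52.1 ± 2.04 and 54.4 ± 3.36 CPM in het1 and homo cells. STXBP6 (amisyn) was raised from 1.30 ± 0.137 CPM to 9.40 ± 0.0793, 5.09 ± 0.215 and 14.4 ± 0.816 CPM in culture and from 4.60 ± 0.797 CPM to 17.8 ± 0.84, 7.03 ± 1.22 and 11.3 ± 1.17 CPM in tumours.

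STXBP5L (chr3:120908072-121424761, plus strand), the second tomosyn, read highest in the tumours of the truncated lines. In culture no library passed 1.48 CPM, although the 3 truncated lines were called raised over 0.108 ± 0.0105 CPM. In day 30 tumours WT read 0.169, 0.298, 0.0348 and 0.438 CPM, het1 5.00, 6.79, 6.06 and 6.39 CPM, het2 5.54, 3.07, 2.41 and 4.44 CPM and homo 9.02, 12.3, 9.58 and 7.70 CPM. Every truncated tumour was above every WT tumour, and the log2FC was 4.67 (SE 0.40), 4.01 (SE 0.40) and 5.33 (SE 0.40). Among the SV2 vesicle glycoproteins, SV2A did not pass in culture and had too few reads at day 30, although in het1 cells without het1 replicate 1 it passed (log2FC -1.85, adjusted p = 0.042). SV2C was detected in homo cells with 101 counts over 3 libraries against 0 in WT, at least 36.1-fold higher with a floor of 3 counts over the WT group.

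The truncated lines also differed from each other in direct tests. Het1 and het2 cells differed for 37 of 60 genes, 16 higher and 21 lower in het1, against 55.7% of all genes (27.6% higher, 28.1% lower). Their day 30 tumours differed for 36 of 59, 20 higher and 16 lower in het1, against 49.3% (25.4% higher, 24.0% lower). The homo line differed from the mean of the het lines for 44 genes in culture, 25 higher and 19 lower, against 49.9% (25.0% and 24.9%), and for 35 in tumours, 16 higher and 19 lower, against 44.7% (22.1% and 22.7%). SYT14 (1.75) and STXBP6 (1.06) were higher in homo than in the mean of the het cells on the log2 scale, with every homo library above every het library, and SYTL5 (-3.41), CPLX2 (-2.40) and SNAP25 (-1.80) were lower. For SYT14 homo cells (14.35 to 15.52 CPM) lay near het2 (11.42 to 12.9 CPM) and far above het1 (1.079 to 2.161 CPM). For CPLX2 they (11.19 to 11.89 CPM) lay near het1 (16.95 to 17.95 CPM) and far below het2 (213.9 to 220.4 CPM). SYT16 was also called higher (1.34), but homo cells (5.38 ± 0.405 CPM) overlapped het2 cells (5.54 ± 0.509 CPM), and the difference came from het1 at 0.809 ± 0.172 CPM. In tumours RIMS4 (1.51) and SYT7 (1.11) were higher in homo and SYTL5 (-3.55), SYT13 (-2.19) and RIMS2 (-1.76) were lower. For RIMS2 the homo tumours (0.3152 to 0.4692 CPM) lay near het2 (0.5621 to 0.6091 CPM) and far below het1 (2.509 to 3.227 CPM). SYT5 was called lower as well (-2.08), but the homo tumours (0.336 ± 0.0581 CPM) overlapped het2 (0.37 ± 0.0824 CPM), and the difference came from het1 at 5.59 ± 0.383 CPM. CPLX2 in homo tumours did not differ from the het tumours (log2FC 0.14, SE 0.07, adjusted p = 0.145), but did without het2 replicate 3 (0.17, adjusted p = 0.0365).

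**Figure D4:**
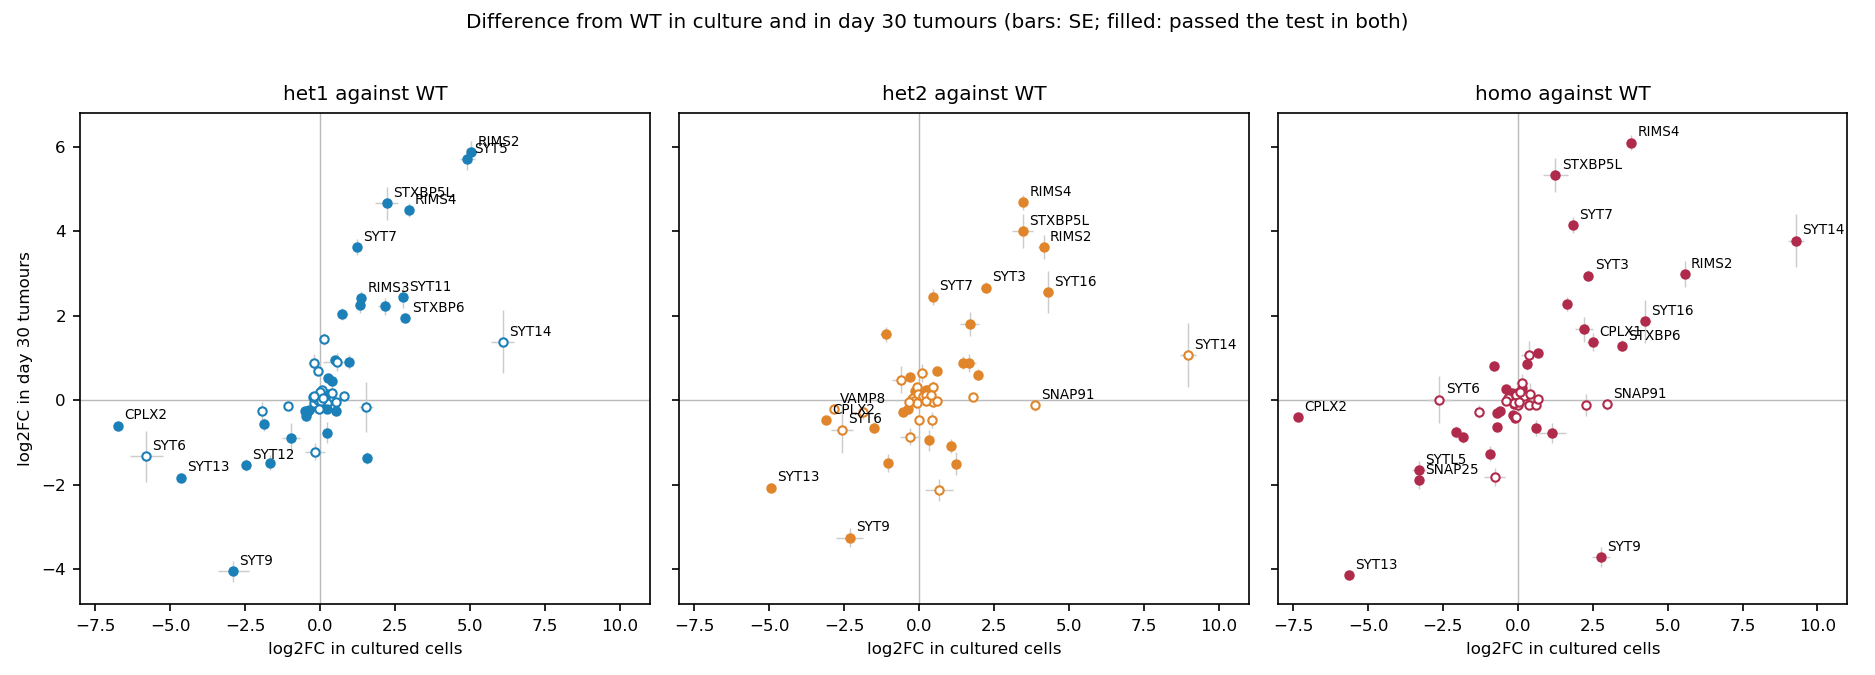
Log2FC against WT in cultured cells (horizontal) and in day 30 tumours (vertical) for each gene tested in both, 1 panel per truncated line, with SE bars; filled points passed the test in both settings. RIMS4, SYT7 and STXBP5L sit high in the upper right, SYT13 in the lower left, CPLX2 far left but close to 0 vertically, and SYT9 of homo in the lower right.

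Culture and tumour calls rest on different libraries and can be set against each other. In het1, 31 genes passed in both, 70.5% of those called in culture and 77.5% of those called in tumours: 16 were raised in both, 11 lowered in both and 4 turned. In het2, 26 passed in both (56.5% and 76.5%), with 13 raised, 7 lowered and 6 turned. In homo, 32 passed in both (66.7% and 84.2%), with 14 raised, 11 lowered and 7 turned. The same direction was kept by 87.1%, 76.9% and 78.1% of the genes called in both, where 80.1%, 72.4% and 73.2% of all genes called in both kept theirs. CPLX1, RIMS2, RIMS3, RIMS4, STXBP5L, STXBP6, SYT3, SYT5 and SYT7 were in the raised group of each line, and CPLX2 and SYT13 in the lowered group of each. The genes that turned included SNAP91, STX17, STXBP5 and SYT1 in het1, STX18, SYT1, SYT11, SYT15, SYTL4 and SYTL5 in het2, and SNAP29, STX2, STX8, SYT2, SYT9 and SYTL4 in homo. SNAP91, for example, read 0.371, 0.634 and 0.720 CPM in WT cells and 1.82, 1.70 and 1.71 CPM in het1 cells, but 3.06, 3.46, 3.45 and 2.72 CPM in WT tumours and 1.12, 1.17, 1.11 and 1.53 CPM in het1 tumours.

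Vehicle-treated tumours gave a second look at het1. There 39 of 60 genes passed against WT, 23 raised and 16 lowered, against 54.0% of all genes (27.3% raised, 26.8% lowered). Of the genes called at day 30 and with vehicle, 34 were called in both (85% and 87.2%), 21 raised and 13 lowered in both and none turned, where 99.2% of all genes called in both kept their direction. CPLX2 with vehicle read 935, 1133, 1139 and 1091 CPM in WT and 807, 931, 763 and 875 CPM in het1 (log2FC -0.35, SE 0.07). SYT13 read 1056, 1215, 1154 and 1129 CPM in WT and 264, 322, 295 and 367 CPM in het1 (log2FC -1.87, SE 0.10). Both genes were lower in every het1 tumour than in any WT tumour. The largest rises were STXBP5L (log2FC 8.04, SE 0.46), SYT5 (7.88, SE 0.24) and RIMS2 (6.03, SE 0.49), from WT means of 0.0246, 0.0216 and 0.0379 CPM, and RIMS2 gave 7.43 without WT vehicle replicate 7.

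SAHA passed the test for no gene of the set in WT tumours by edgeR, where 0.00% of all genes passed; 7 of the 60 had an unadjusted p under 0.05, as had 1911 of all genes. DESeq2 called 1 of the set, STXBP5L, and 151 genes in all. In het1 tumours SAHA changed 15 of 60 genes, 8 raised and 7 lowered, against 16.8% of all genes (7.68% raised, 9.15% lowered). RIMS4 read 4.30, 3.97, 4.62 and 3.77 CPM with vehicle and 10.3, 8.95, 11.2 and 11.0 CPM with SAHA (log2FC 1.31, SE 0.21, adjusted p = 4.67e-04). STXBP5L read 7.10, 6.01, 8.06 and 6.55 CPM with vehicle and 14.2, 14.3, 17.1 and 15.8 CPM with SAHA (log2FC 1.15, SE 0.24, adjusted p = 0.00396). CPLX2 went the other way, from 807, 931, 763 and 875 CPM to 455, 481, 431 and 502 CPM (log2FC -0.85, SE 0.07, adjusted p = 9.32e-07). In these genes no SAHA library overlapped a vehicle library. For RIMS4 SAHA thus added to what already set het1 apart from WT, and it deepened the lower level of CPLX2. STXBP5L rose in het1, but its log2FC against WT was 8.04 with vehicle and 6.54 with SAHA. Without WT SAHA replicate 4 the value with SAHA was 7.75.

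Other genes raised by SAHA in het1 included SYT12 (log2FC 1.07, SE 0.22), SYT1 (0.69, SE 0.16), RIMS3 (0.59, SE 0.19), SYTL2 (0.57, SE 0.12) and STX10, a syntaxin of the trans-Golgi network (0.29, SE 0.07). Those lowered were SYT13 (-0.46, SE 0.10), SYT17 (-0.39, SE 0.10), STX1A (-0.35, SE 0.11), VAMP4 (-0.23, SE 0.07), STXBP3 (-0.22, SE 0.05) and STX6 (-0.21, SE 0.06). SYT12 had been lower in het1 than in WT, and SAHA moved it toward WT: 1.83 ± 0.492 CPM with vehicle, 3.84 ± 0.629 CPM with SAHA, and 7.98 ± 1.62 CPM in WT with vehicle (SD, n = 4). STX1A fell from 48.7 ± 3.57 to 38.1 ± 5.98 CPM, and this call was lost when any of 6 of the 8 het1 libraries was left out (adjusted p from 0.051 to 0.114), among them SAHA replicates 1, 2 and 6 and vehicle replicates 2, 3 and 5. Under SAHA, het1 differed from WT for 42 of 60 genes, 24 raised and 18 lowered, against 58.9% of all genes (29.9% raised, 29.0% lowered).

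**Figure D5:**
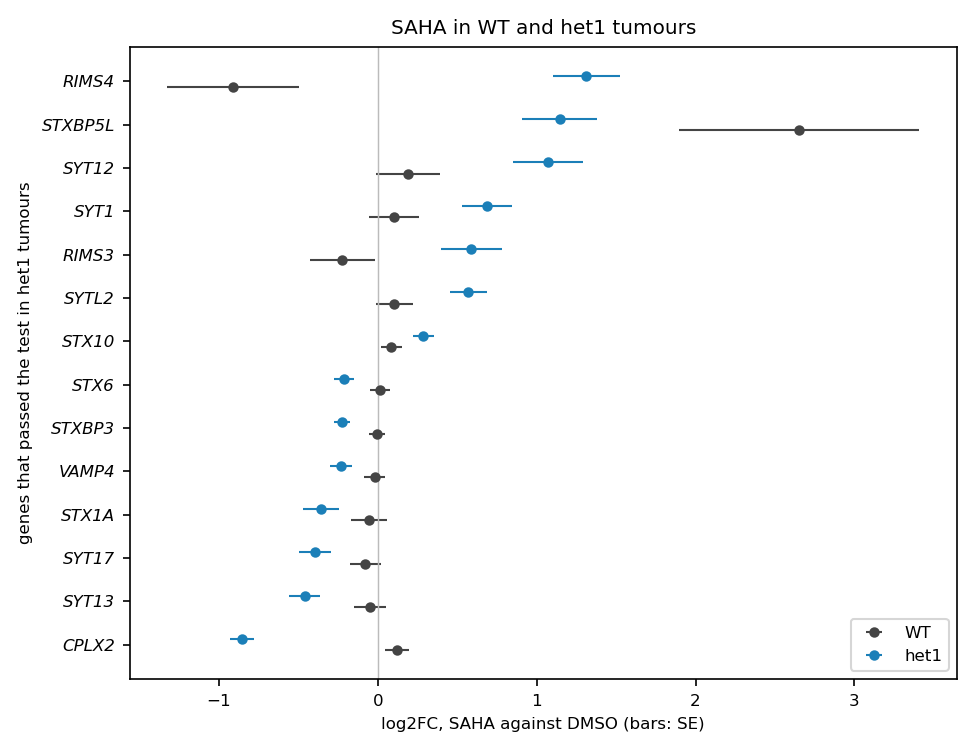
Log2FC of SAHA against vehicle (horizontal axis, SE bars) for 14 of the 15 genes that passed in het1 tumours, in WT (dark) and het1 (blue). RIMS4 and CPLX2 lie on opposite sides of 0 in the 2 lines, and STXBP5L has a wide bar in WT, where its level was under 0.5 CPM.

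The test of the SAHA effect in het1 minus that in WT passed for 3 of the 60 genes, 2 higher and 1 lower in het1, against 4.72% of all genes (2.01% higher, 2.71% lower). For CPLX2 the difference was -0.97 (SE 0.10, adjusted p = 7.09e-05): WT tumours read 1244, 1119, 1196 and 1115 CPM with SAHA, as high as with vehicle. For RIMS4 it was 2.22 (SE 0.46, adjusted p = 0.0123), with 0.0954, 0.111, 0.139 and 0.128 CPM in WT with SAHA and 0.0273, 0.251, 0.366 and 0.244 CPM in WT with vehicle. Leaving out each library in turn, RIMS4 gave 1.82 to 2.60 (adjusted p at most 0.0443), and the count of 3 genes became 2 to 6, with 6 without WT SAHA replicate 6. With replicate number as a block the RIMS4 call was lost (1.80, adjusted p = 0.26) and CPLX2 alone passed, although replicate numbers did not pair the libraries. For the other 12 genes that SAHA changed in het1, the difference from WT did not pass, which does not show that the lines responded alike. In the WT tumours with SAHA, STXBP5L stood at 0.446 CPM in replicate 4 and at 0.0682 to 0.0712 CPM in the others, and its het1 log2FC against WT under SAHA was 6.54, and 7.75 without that library.

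The wider release machinery was read from lists of partner genes. Of 15 tested genes for priming and tethering, 9, 8 and 9 were raised and 4, 6 and 5 lowered in het1, het2 and homo cells, and 7, 7 and 8 raised and 4, 6 and 4 lowered in their tumours. The shares of all genes to set beside this and the next lists are 32.0%, 35.1% and 35.4% raised and 30.8%, 33.3% and 35.1% lowered in culture, and 26.8%, 24.4% and 27.1% raised and 24.8%, 24.8% and 27.7% lowered in tumours. UNC13D (Munc13-4), which primes granules with Rab27, was lowered from 21.5 CPM in WT cells to 0.747, 0.658 and 1.03 CPM and from 44.9 CPM in WT tumours to 4.67, 5.49 and 9.35 CPM. CADPS2, which primes dense-core vesicles, was raised from 0.40 CPM to 4.30, 1.71 and 28.8 CPM in culture and from 5.28 CPM to 10.6, 16.8 and 37.9 CPM in tumours. Of 13 tested vesicle membrane genes 6, 8 and 7 were raised and 4, 3 and 4 lowered in culture, and 8, 8 and 9 raised and 3, 1 and 1 lowered in tumours. Synaptophysin (SYP) was among those raised in all 3 tumours, from 1.75 CPM to 6.61, 3.61 and 12.9 CPM. In culture SYP was raised from 4.95 CPM to 8.15 CPM in het2 and 13.1 CPM in homo, and het1 at 5.65 CPM did not pass. Of 11 tested Rab3 and Rab27 genes 4, 4 and 3 were raised and 4, 5 and 4 lowered in culture, and 0, 2 and 1 raised and 6, 2 and 4 lowered in tumours, close to the shares of all genes in culture. The 9 exocyst subunits and the 12 SNAREs with other names held 0 changes of 2-fold or more in any line in either setting. Of all genes 19.6%, 23.7% and 26.6% changed that much in culture and 18.5%, 14.1% and 20.0% in tumours. Smaller changes passed in both directions, such as EXOC2 (log2FC 0.44, 0.24 and 0.31) and EXOC6 (-0.40, -0.83 and -0.72) in het1, het2 and homo cells.

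Markers of other cells were read beside these values. In culture 5 epithelial markers led by KRT8 summed to 6406 to 6751 CPM in WT and to 2576 to 2696, 2018 to 2086 and 832 to 848 CPM in het1, het2 and homo, and all 5 were lowered in each line. Of the 7 alveolar type II markers 1 reached 1 CPM in WT cells and 3 in each truncated line, with ABCA3 the highest and SFTPA1 at 0 counts in WT, het1 and homo cells. The 9 Schwann cell and nerve markers, a source of synaptic RNA in a tumour, summed in day 30 tumours to 344.9 to 362.7 CPM in WT and 204.2 to 228.8, 185.5 to 221, and 81.2 to 113 CPM in het1, het2 and homo. Of those 9 genes 3, 4, 4 and 5 reached 1 CPM, ERBB3 was the highest, and S100B was at 0 counts in WT and homo tumours. In cultured WT cells the same 9 genes summed to 86.6 to 92.7 CPM, led by MBP. The tumour sum was highest in WT and lowest in homo, as SYT13 was, and its part in the tumour values was not tested. The 9 fibroblast markers summed to 222.8 to 367.9 CPM in WT tumours and to 116.5 to 298.5, 108.5 to 354.7 and 323.6 to 496.8 CPM in the others, with 6, 9, 8 and 8 of 9 at 1 CPM or more and none at 0. Each line's range of this sum overlapped that of WT. The host score over fibroblast, endothelial and myeloid genes (mean log2(CPM + 0.5)) did move with the line: 1.25 to 1.41 in WT, 1.40 to 1.66 in het1, and 1.5 to 1.83 in het2 and 1.70 to 1.81 in homo, both clear of WT. With that score as covariate 37, 25 and 27 genes of the set passed in het1, het2 and homo tumours in place of 40, 34 and 38, and over all genes 9869, 7838 and 7461 in place of 11612, 11084 and 12348. The fibroblast markers alone were also raised in culture, with 7, 7 and 6 of 7 tested genes raised in het1, het2 and homo (32.0%, 35.1% and 35.4% of all genes were). Their sums were 51.3 to 52.7, 55.6 to 58.6 and 66.3 to 74.2 CPM against 9.86 to 10.9 CPM in WT, where COL1A2 and DCN were at 0 counts. The rest of the score went both ways there: ITGAM (log2FC -2.10, -2.44 and -1.51) and CD14 (-0.35, -0.36 and -2.75) were lowered and EGFL7 (0.77, 0.89 and 1.11) was raised. Beyond the covariate fits given above, the part of these genes in the results was not tested. Of the genes of the set called in both settings, 4, 6 and 7 turned between culture and tumours in het1, het2 and homo. RIMS2, RIMS3, RIMS4, SYT7, SYT13 and CPLX2 were among those that kept their direction in each line. From which cells the RNA of these genes came was not tested.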

How the data were processed

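RNA from 44 libraries (12 cultures, 16 day 30 tumours, 16 treated tumours) was sequenced after polyA selection with a stranded kit, per the labels' protocols. The deposited values are raw read counts per gene. Reads were processed with bcl2fastq, HISAT2 and HTSeq on hg38, per the submitters' processing notes; no source here gives the annotation release or strand setting. All 58721 gene identifiers matched GENCODE 29, which gave symbols, types and lengths. VAMP7 has a second row for its Y copy, left out. Each table was fitted with all its groups in edgeR 4.0.16 (filterByExpr, TMM, robust quasi-likelihood F test, Benjamini-Hochberg threshold 0.05 over all genes); a second rule adds a 2-fold change. SE is the size of the log2FC divided by the square root of F. The test was tried on simulated counts. Alternatives were RLE size factors, DESeq2 1.42.0, other filters, only the groups compared, a replicate block, a host cell score (mean log2(CPM + 0.5) of fibroblast, endothelial and myeloid genes) as covariate, and leaving out each library. Intervals and floors of 3 counts cover counting error only. The genes named are, per comparison, up to 4 largest rises and 4 largest falls among called members with at least 1 CPM in the higher group, plus SYT1, STX1A, SNAP25, VAMP2, CPLX1, CPLX2, SV2A, RIMS1, SNAP23, STX4, VAMP3, VAMP8, STXBP2 and EP300; others named were chosen after their values were seen. Single values of 2 genes of the set, which stay in the counts, are not reported here. Members and lists were chosen with earlier results of these data known. No library pair within a group was identical among 60 pairs.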

Additional observations from a re-analysis of the deposited data

Results flagged for a closer look

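Of 95 groups of 4 libraries examined for a library apart from the rest, 2 held one, where chance gives about 1 in 20. Both were het1 day 30 tumours of replicate 4: SNAP91 read 1.53 CPM there and 1.11 to 1.17 CPM in the other libraries, and STX5 read 44.55 CPM there and 36.42 to 37.61 CPM in the others.

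The SAHA effect differed between het1 and WT tumours by edgeR's interaction test. The difference of log2FC was -0.9738 for CPLX2 (adjusted p = 7.087e-05) and 2.222 for RIMS4 (adjusted p = 0.01234), which ranged from 1.82 to 2.60 with each library left out (adjusted p up to 0.0443). With replicate number as a block RIMS4 gave 1.80 and did not pass (adjusted p = 0.26).

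The het lines were called in opposite directions against WT for some genes, and the difference het1 minus het2 itself passed. In culture it was -0.9216 for STX3, -2.944 for SYT12, -2.758 for SYT15, 2.449 for SYTL5 and 3.624 for VAMP8 on the log2 scale. In day 30 tumours it was -0.447 for STX17, 2.1 for STX1A, 0.9679 for STX2, -0.5966 for STX5, 3.934 for SYT11 and 3.027 for SYT2. SYT2 read only 0.1018 to 1.488 CPM in these tumours. It shares 2111 exon bases with PPP1R12B on the opposite strand, so its counts are uncertain where strand was not used.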

How the results depend on the processing

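Of 224 recomputed counts of called genes 218 stayed within 1.5 times the reported count, and of 1555 recomputed log2FC of 107 named changes 1526 kept their direction and call, 29 lost the call and 0 reversed. The counts that moved were all of SAHA. In WT tumours DESeq2 called 1 gene (STXBP5L). In het1 tumours the replicate block left 4, among them CPLX2, RIMS4 and STXBP5L. For the interaction DESeq2 called 6, the host cell covariate 5 and the replicate block 1 (CPLX2), with RIMS4 at 1.80 (adjusted p = 0.26).

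Leaving out 1 library gave 43 to 45 called genes in het1 cells, 45 to 46 in het2 cells, 45 to 49 in homo cells, 39 to 45 for homo against the het cells and 36 to 38 for het1 against het2 cells. In day 30 tumours the ranges were 36 to 41, 33 to 37, 36 to 41, 29 to 36 and 33 to 38 in the same order. For het1 against WT they were 36 to 39 with vehicle and 41 to 45 with SAHA. For SAHA they were 0 to 0 in WT, 11 to 15 in het1 and 2 to 6 for the interaction, with 6 without WT SAHA replicate 6.

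Replicate numbers did not pair the libraries: same-numbered residuals correlated between -0.19 and 0.17, and a library's best match shared its number in 2 of 12 cultures, 1 of 16 day 30 tumours and 3 of 16 treated tumours. With the replicate block all genes called for SAHA in het1 numbered 812 in place of 3801, and 19 in place of 1066 for the interaction. Genes under about 0.3 CPM rest on few reads. Each line is a single line, and culture, day 30 and treated tables were scaled apart.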
